A study of Homo sapiens with 30 samples.

Results

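HCT116 is a human colorectal cancer cell line. Its cells had been given a hairpin against SETDB1, a histone H3 lysine 9 methyltransferase of silent chromatin, and were sorted into a fraction labelled KRT-positive and one labelled KRT-negative. The comparison took in every gene and the 6 libraries with these labels, 3 per fraction, of 30 in the series. The 3 unsorted HCT116 libraries served to estimate the spread. The labels name neither the keratin of the sort, nor the medium of these fractions, nor any hairpin for the unsorted cells. Retrovirally transduced cells were kept in puromycin, and troglitazone with 1α,25-dihydroxyvitamin D3, a PPARG and a VDR agonist, is described for the series as a differentiation medium. Gene levels came from QuantSeq, which reads 1 tag near the 3′ end of each transcript, and are given as CPM, each gene's share of a library's counts on a common scale.

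Keratins are the intermediate filament proteins of epithelia, and KRT20 marks mature cells at the surface of the colon. SETDB1 is recruited with TRIM28 to zinc finger protein targets and retroelements, and its loss is known to release retroelement transcripts that double-stranded RNA sensors detect. In the colon, epithelial cells leave a stem cell compartment that needs Wnt and R-spondin signals and stop dividing as they mature.

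Totals were 8662931 to 9660284 counts per KRT-positive library, 8024326 to 10221854 per KRT-negative library and 5349737 to 7130812 per unsorted library. Replicates differed far beyond counting noise. Among replicates of a group, chi-square over its degrees of freedom came to 59.5 in the KRT-positive fraction and 71.9 in the KRT-negative one, against 3.57 to 12.7 in the 4 Caco2 groups. The other groups of HCT116 and SW480 were as noisy. The value was 51.1 in unsorted HCT116 cells, and 75.3, 131 and 62.4 in KRT-negative, KRT-positive and unsorted SW480 cells. Of genes averaging at least 10 CPM, 98 of 9891 had a KRT-positive library at 0 counts and 91 of 9260 had a KRT-negative one. Each library also leaned by transcript GC content: the Spearman correlation of its deviations with GC across 7294 genes was between -0.16 and -0.05 in KRT-positive libraries, and -0.23, 0.25 and 0.24 in KRT-negative 1, 2 and 3. KRT-negative 1 thus leaned the way of the KRT-positive libraries, and KRT-negative 2 and 3 the other way. Whether the replicates came from separate cultures is not in the labels, so a p-value here reflects only how far these samples differ, which may be technical. A fall in a level can come from fewer cells of a type or from less RNA per cell, which cannot be told apart in bulk samples.

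SETDB1 (chromosome 1, 150926263 to 150964744, GRCh38), the target of the hairpin, had 2.15, 19.9 and 31.3 CPM in KRT-positive libraries 1 to 3, against 0, 5.75 and 2.97 CPM in KRT-negative libraries, with 72.5, 70.8 and 16.8 CPM in unsorted cells. The sorted fractions overlapped, and KRT-positive library 3 lay above unsorted library 3. The log2 fold change was 2.60 ± 1.07 (SE), with an edgeR adjusted p of 0.366, so it was not called. KRT20 (chromosome 17, 40875941 to 40885227) had 0, 0 and 5.84 CPM in KRT-positive libraries, against 0, 0 and 0 CPM in KRT-negative libraries. All 56 of its counts came from KRT-positive library 3, and the gene was too low to be tested. In SW480, another colorectal line with the same fraction names, KRT20 reached 75.1, 53.7 and 44.4 CPM in KRT-positive libraries, against 0, 0.667 and 0 CPM in KRT-negative libraries.

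Of 20 keratins 9 could be tested and 0 were called by edgeR, with 2 at an unadjusted p under 0.05, while DESeq2 called 1 lower. Over all 13279 tested genes, 11.2% had an unadjusted edgeR p under 0.05, and DESeq2 called 405, 146 higher and 259 lower. KRT18, a simple epithelial keratin, had 251, 254 and 271 CPM in KRT-positive libraries, against 293, 358 and 345 CPM in KRT-negative libraries, with an edgeR adjusted p of 0.660. KRT10, best known from skin, had 143, 185 and 141 CPM in KRT-positive libraries, against 267, 302 and 309 CPM in KRT-negative libraries, with an edgeR adjusted p of 0.140. Both lay below the KRT-negative libraries in all 3 KRT-positive ones, while 4 of the 9 tested keratins had a positive log2 fold change. KRT23, one of the 2 under 0.05, had 0, 1.22 and 7.92 CPM in KRT-positive libraries, against 0, 0 and 0 CPM in KRT-negative libraries, and the groups overlapped at 0. The summed level of the 20 keratins was 599 to 663 CPM in KRT-positive libraries, against 788 to 1087 CPM in KRT-negative libraries. Of 14 colorectal epithelial markers 10 were tested and 0 called by edgeR (2 at an unadjusted p under 0.05, 1 called by DESeq2), with 5 positive and 5 negative log2 fold changes. EPCAM, an epithelial surface protein, had 411, 608 and 636 CPM in KRT-positive libraries, against 383, 282 and 305 CPM in KRT-negative libraries, and was the 1 marker that separated above (10%, against 8.77% of all genes). CLDN4, a tight junction claudin, had 119.7, 85.2 and 132 CPM in KRT-positive libraries, against 149, 232 and 245 CPM in KRT-negative libraries, and separated below, as did CDX2 and KRT18 (30%, against 9.45% of all genes). The markers of leukocytes, fibroblasts and endothelium summed to 131 to 164 CPM in KRT-positive libraries, against 99.9 to 240 CPM in KRT-negative libraries, and 0 of the 9 tested were called by edgeR or DESeq2 or had an unadjusted p under 0.05.

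Of 13279 tested genes, 73 differed at a 5% false discovery rate with edgeR's quasi-likelihood test, which is 0.55% of the genes tested. KRT-positive cells had 22 of them higher (0.166%) and 51 lower (0.384%), and 68 differed at least 2-fold. With library totals in place of TMM factors the split was 35 higher and 36 lower, while the median log2 fold change of all genes moved to 0.21 from 0.03. All 6 libraries separated without overlap for 1165 genes above (8.77%) and 1255 below (9.45%), together 18.2%, and for all 73 called genes. The calls rest on few libraries. Leaving out 1 library left 15 to 172 calls, and 9 genes were called in all 17 alternatives tried: GM2A and STIM1, higher, and ANGPTL4, SNHG5, DDIT4, HMGA1, JUN, ZFAS1 and COTL1, lower. In 1 of the 17, the fit of libraries that lean to AT-rich transcripts, KRT-negative 1 stands alone for its group and is assumed to vary like the others. All 73 kept their sign in all 17. The fractions do not overlap in these genes, so leaving libraries out could hardly reverse a sign, and this is no separate support.

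**Figure D1:**
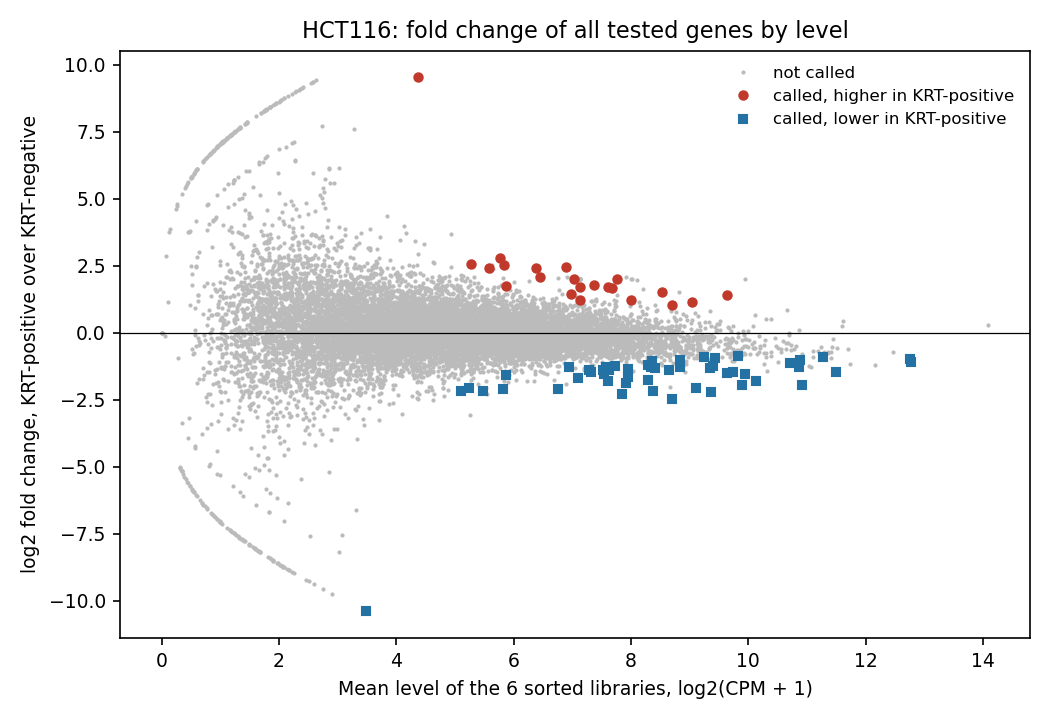
Fold change of all 13279 tested genes (KRT-positive over KRT-negative, log2) against their mean level in the 6 sorted libraries, log2(CPM + 1). Red circles are the 22 genes called higher and blue squares the 51 called lower; the called genes lie mostly at middle to high levels, while large fold changes at low levels were mostly not called.

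GCNT3, which builds branched O-glycans on mucins, had the largest log2 fold change of the 22 genes called higher. It had 47.1, 46.9 and 24.1 CPM in KRT-positive libraries, against 0.123, 0 and 0 CPM in KRT-negative libraries. These were 1171 counts in the KRT-positive libraries and 1 in the KRT-negative ones, a 1060-fold ratio with a 95% counting interval of 190 to 41885, and the edgeR adjusted p was 0.0163. Unsorted cells had 0, 0 and 1.28 CPM. GCNT3 was also called higher in KRT20-positive Caco2 cells, with a log2 fold change of 0.88 ± 0.12 (SE) there.

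GM2A and STIM1 were the higher genes that kept their call under every alternative tried. GM2A, the lysosomal GM2 activator protein, had 228, 202 and 168 CPM in KRT-positive libraries, against 34.2, 45.8 and 29.7 CPM in KRT-negative libraries. Its log2 fold change was 2.45 ± 0.32 (SE), with an edgeR adjusted p of 0.00255. STIM1, the calcium sensor of the endoplasmic reticulum, had 617, 511 and 502 CPM in KRT-positive libraries, against 186, 187 and 196 CPM in KRT-negative libraries. Its log2 fold change was 1.52 ± 0.21 (SE), with an edgeR adjusted p of 0.00357.

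Receptors, ligands and surface proteins made up much of the rest. LGR4, a receptor for R-spondins that raises Wnt signalling, had 78.5, 119 and 88.7 CPM in KRT-positive libraries, against 18.8, 11.8 and 19.2 CPM in KRT-negative libraries (log2 fold change 2.52 ± 0.43 (SE)). JAG1, a Notch ligand, had 157, 224 and 239 CPM in KRT-positive libraries, against 44.5, 40.1 and 68.9 CPM in KRT-negative libraries (log2 fold change 2.01 ± 0.32 (SE)). HES1, a transcriptional target of Notch, was called lower, with 36.04, 27.97 and 56.9 CPM in KRT-positive libraries, against 256, 124 and 138 CPM in KRT-negative libraries (log2 fold change -2.10 ± 0.37 (SE)). JAG1 and HES1 were taken from the 73 called genes, all of which separated without overlap. No list of Notch genes was examined, and Notch signalling was not tested. CD55, which protects cells from complement, had 259, 403 and 369 CPM in KRT-positive libraries, against 111, 69.4 and 77.8 CPM in KRT-negative libraries. DSC2, a desmosomal cadherin, had 625, 803 and 746 CPM in KRT-positive libraries, against 356, 328 and 304 CPM in KRT-negative libraries. ABCB1, the multidrug efflux pump, had 154, 112 and 151 CPM in KRT-positive libraries, against 26.3, 26.5 and 25.9 CPM in KRT-negative libraries, and 0.976, 1.01 and 2.35 CPM in unsorted cells. For ABCB1 both sorted fractions thus lay far above the unsorted cells.

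Other genes called higher have varied roles. MYO5A, a myosin motor that moves vesicles, had 112, 70.2 and 96.3 CPM in KRT-positive libraries, against 14.9, 9.65 and 16.1 CPM in KRT-negative libraries. LIPH, a lipase that makes lysophosphatidic acid, had 250.2, 331 and 311 CPM in KRT-positive libraries, against 126, 91.6 and 54.9 CPM in KRT-negative libraries. LGALS3, the lectin galectin-3, had 311, 341 and 281 CPM in KRT-positive libraries, against 81.96, 89.9 and 121 CPM in KRT-negative libraries. These 3 genes kept a clear gap between the fractions. SERPINE2, a secreted protease inhibitor, had 1086, 1373 and 1002 CPM in KRT-positive libraries, against 507, 402 and 394 CPM in KRT-negative libraries. The log2 fold changes of these 4 genes lay between 1.41 and 2.78, all with edgeR adjusted p-values under the threshold. The genes BBS4, BCO2, HMGN5, RGS4, KANSL1, PPP1R14C, STK39, S100A10 and TUBA1A were also called higher. TUBA1A has close tubulin paralogs, and how shared reads were assigned is not stated.

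**Figure D2:**
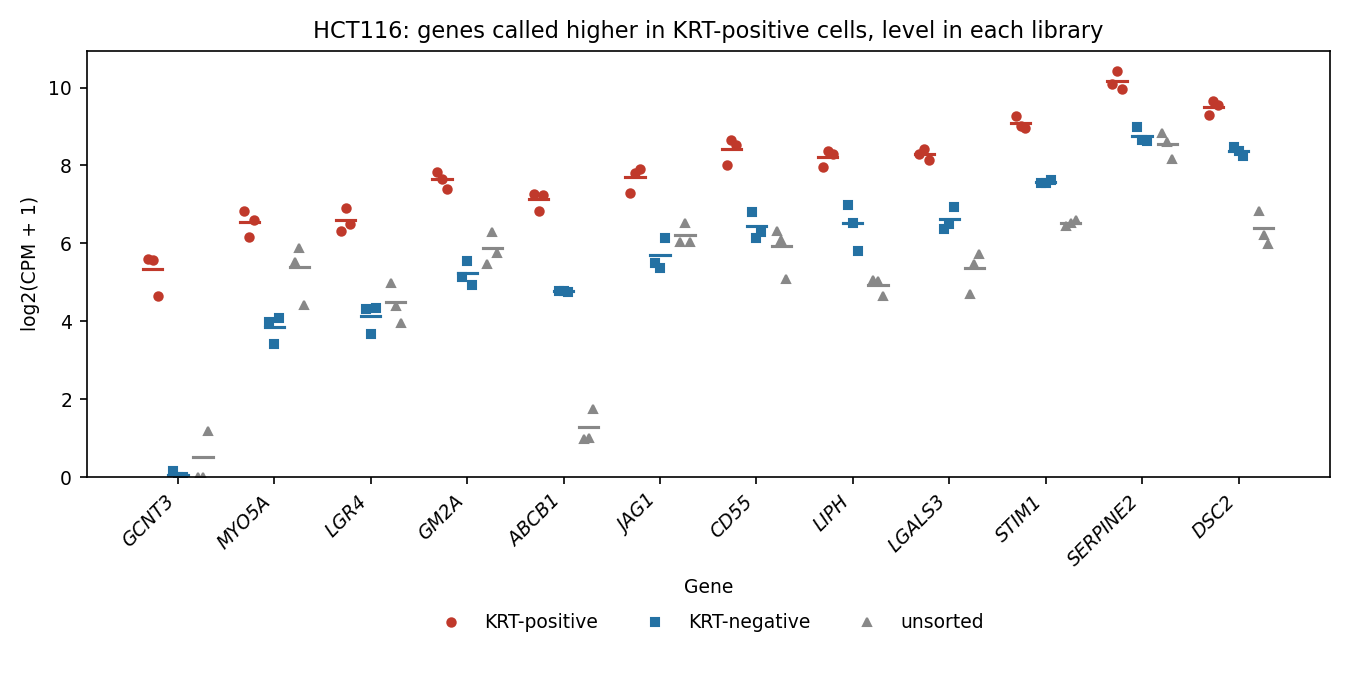
Level of 12 genes called higher in KRT-positive cells, log2(CPM + 1), in each HCT116 library: red circles KRT-positive, blue squares KRT-negative, grey triangles unsorted, with a bar at the log2 of the group mean + 1. In each gene all KRT-positive points lie above all KRT-negative points, and GCNT3 is at or near 0 outside the KRT-positive libraries.

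Among the genes called lower, ZNF419, a KRAB zinc finger gene, was at 0 counts in every KRT-positive library, against 4.68, 25.6 and 30.5 CPM in KRT-negative libraries. Pooled, the KRT-negative libraries had 562 counts. That is at least 207-fold above the pooled KRT-positive libraries, taking 3 counts over the group as the limit that 0 allows. This limit covers counting error only, not the spread between replicates, and KRT-negative library 1 lay well below libraries 2 and 3. Unsorted cells had 2.93, 6.89 and 3.84 CPM. Its call held in 9 of the 17 alternatives, and was lost with the replicate block, with the GC term, among AT-leaning libraries and without any 1 of KRT-positive 1, 2 and 3 or KRT-negative 2 and 3. Of 320 tested ZNF genes edgeR called 1, ZNF419 (0.312%, against 0.384% of all genes called lower). DESeq2 called 2 higher and 3 lower, against 146 and 259 of all 13279 genes. The median log2 fold change of the ZNF genes was -0.04, against 0.03 over all genes.

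Targets of the nuclear receptors PPAR and VDR were among the genes called lower. ANGPTL4, a secreted lipase inhibitor and PPAR target, had 153, 145 and 81.4 CPM in KRT-positive libraries, against 522, 728 and 846 CPM in KRT-negative libraries and 13.3, 17.5 and 25.2 CPM in unsorted cells (log2 fold change -2.46 ± 0.31 (SE), edgeR adjusted p 0.00137). PLIN2, a lipid droplet coat protein and PPAR target, had 435, 407 and 515 CPM in KRT-positive libraries, against 1010, 1241 and 1510 CPM in KRT-negative libraries and 107, 109 and 168 CPM in unsorted cells. CYP24A1, the enzyme that degrades active vitamin D and a VDR target, had 83.9, 131 and 93.5 CPM in KRT-positive libraries, against 455, 409 and 267 CPM in KRT-negative libraries and 8.78, 12.8 and 17.3 CPM in unsorted cells. In these 3 genes every library of either fraction lay above the unsorted cells, and the KRT-negative fraction was highest. TRPV6, a calcium channel and VDR target, had 9.44, 5.89 and 8.13 CPM in KRT-positive libraries, against 52.3, 76.9 and 69.9 CPM in KRT-negative libraries, and missed the threshold with an edgeR adjusted p of 0.0553. The PPAR list as a whole went both ways. Of 20 tested PPAR targets edgeR called 2 lower (10%, against 0.384% of all genes) and 0 higher. Of the 20, 12 had a positive log2 fold change, and the median was 0.20, between -0.46 and 0.38 over the alternatives. Yet 7 separated below (35%, against 9.45% of all genes) and 3 above (15%, against 8.77%). The PPAR list summed to 1966 to 2088 CPM in KRT-positive libraries, against 3054 to 3709 CPM in KRT-negative libraries. That sum includes the called genes PLIN2 and ANGPTL4, so it does not describe the list as a whole. Their means were 452 and 127 CPM in KRT-positive libraries, against 1254 and 698 CPM in KRT-negative libraries. Of 15 tested VDR targets edgeR called 1 lower (6.67%, against 0.384% of all genes) and 0 higher. Of the 15, 12 had a negative log2 fold change and 3 a positive one. Their median was -0.40, between -0.54 and 0.50 over the alternatives. DESeq2 called 2 lower and 1 higher, against 259 lower and 146 higher of all 13279 genes. Of the VDR targets 3 separated above (20%, against 8.77% of all genes) and 3 below (20%, against 9.45%). ATP2B1, a calcium pump and VDR target, had 438, 424 and 493 CPM in KRT-positive libraries, against 266, 224 and 179.6 CPM in KRT-negative libraries, and was not called (edgeR adjusted p 0.117).

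Immediate early genes respond within minutes to growth and stress signals. Of 27 tested, 3 were called lower (0.384% of all genes were) and 0 higher, and 14 had all KRT-positive libraries below all KRT-negative ones (51.9%, against 9.45% of all genes). Their median log2 fold change was -0.77, against 0.03 over all genes. It lay between -0.86 and -0.43 over the alternatives, and with the GC class of the libraries as a term it was -0.43, with 1 gene called lower. JUN, a subunit of AP-1, had 525, 343 and 309 CPM in KRT-positive libraries, against 1304, 1534 and 1690 CPM in KRT-negative libraries (log2 fold change -1.94 ± 0.27 (SE), edgeR adjusted p 0.00336). IER2 and DUSP5, a phosphatase of ERK, were called too, with log2 fold changes of -1.39 ± 0.27 (SE) and -1.81 ± 0.38 (SE). IER3 had 756, 598 and 748 CPM in KRT-positive libraries, against 1151, 1996 and 2434 CPM in KRT-negative libraries, and was not called (edgeR adjusted p 0.0624).

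The ATF4 and unfolded protein response list had 2 of 29 tested genes called lower (0.384% of all genes were) and 0 higher, 11 separated below (37.9%, against 9.45% of all genes) and a median log2 fold change of -0.47, between -0.54 and -0.29 over the alternatives. DDIT4, an inhibitor of mTORC1, had 152, 234 and 319.8 CPM in KRT-positive libraries, against 940.1, 1084 and 1214 CPM in KRT-negative libraries (log2 fold change -2.20 ± 0.27 (SE), edgeR adjusted p 0.00137). HSPA5, the main chaperone of the endoplasmic reticulum, had 5215, 4094 and 4780 CPM in KRT-positive libraries, against 7602, 9316 and 10708 CPM in KRT-negative libraries (log2 fold change -0.97 ± 0.18 (SE)). ASNS, asparagine synthetase, had 325, 270.1 and 357 CPM in KRT-positive libraries, against 434, 855 and 694 CPM in KRT-negative libraries, and was not called (edgeR adjusted p 0.146). The summed level of the list was lower in every KRT-positive library, at 11358 to 12315 CPM, against 17419 to 22879 CPM in KRT-negative libraries. In the list of NRF2 targets and iron genes, 24 were tested. HMOX1, heme oxygenase, and FTL, the ferritin light chain, were called lower (8.33%, against 0.384% of all genes), and 0 were called higher. Of the 24, 9 separated below (37.5%, against 9.45% of all genes). The median log2 fold change of this list was -0.43, between -0.54 and -0.26 over the alternatives. HMOX1 had 141, 102 and 115 CPM in KRT-positive libraries, against 296, 638 and 699.8 CPM in KRT-negative libraries. GDF15, a stress-induced cytokine, was the 1 gene that edgeR called among 25 tested p53 targets (4%, against 0.384% of all genes called lower). It had 1593, 1440 and 1533 CPM in KRT-positive libraries, against 2817, 4996 and 4924 CPM in KRT-negative libraries. The p53 list went both ways, with 13 positive and 12 negative log2 fold changes. Of its genes 4 separated above (16%, against 8.77% of all genes) and 3 below (12%, against 9.45%). DESeq2 called 1 higher and 1 lower, against 146 and 259 of all 13279 genes. RRM2B, a ribonucleotide reductase subunit, had 268, 279.8 and 292 CPM in KRT-positive libraries, against 134, 158 and 137 CPM in KRT-negative libraries (edgeR adjusted p 0.0790).

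HMGA1, an architectural chromatin protein, and COTL1, which binds actin, kept their call in all 17 alternatives. HMGA1 had 745, 829.5 and 807 CPM in KRT-positive libraries, against 2172, 3704 and 3324 CPM in KRT-negative libraries (log2 fold change -1.95 ± 0.24 (SE), edgeR adjusted p 0.00137). COTL1 had 362, 481 and 395 CPM in KRT-positive libraries, against 898, 1255 and 1380 CPM in KRT-negative libraries (log2 fold change -1.51 ± 0.21 (SE)). SERINC2, EPHA2, GADD45B, SERPINB9, RPIA, TTLL4, FOXK1, ID3, ETS2, ODC1 and ITGB5 were among the others called lower. EPHA2, an ephrin receptor, had 109, 118 and 198 CPM in KRT-positive libraries, against 469, 491 and 491 CPM in KRT-negative libraries. SCD, which desaturates fatty acids, was called lower (-1.04 ± 0.22 (SE)). ETS2 was the 1 gene that edgeR called of 16 tested stem cell and Wnt targets (6.25%, against 0.384% of all genes called lower). DESeq2 called 1 higher and 1 lower, against 146 and 259 of all 13279 genes. Of the 16, 7 had a positive log2 fold change and 9 a negative one. In this list 2 separated above (12.5%, against 8.77% of all genes) and 2 below (12.5%, against 9.45%).

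**Figure D3:**
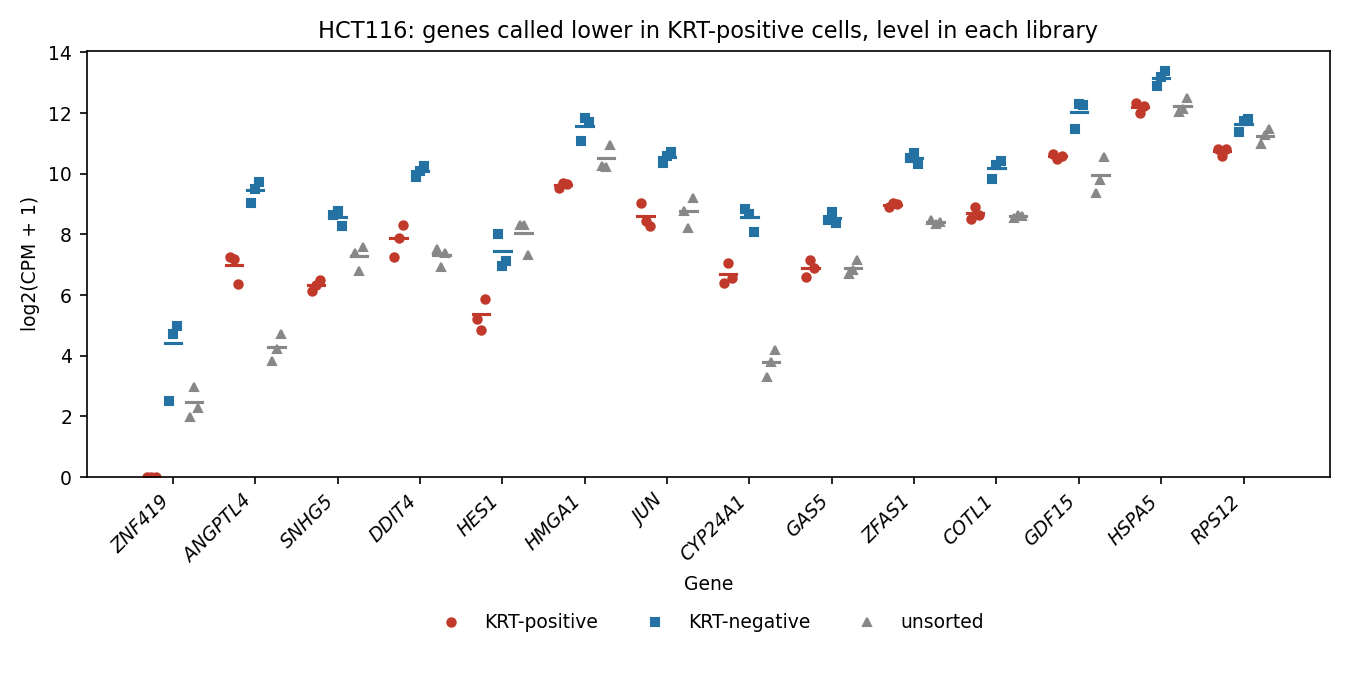
Level of 14 genes called lower in KRT-positive cells, log2(CPM + 1), in each HCT116 library: red circles KRT-positive, blue squares KRT-negative, grey triangles unsorted, with a bar at the log2 of the group mean + 1. In each gene all KRT-positive points lie below all KRT-negative points, and ZNF419 is at 0 in the KRT-positive libraries.

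Genes of the translation machinery were among those called lower. Many of their transcripts begin with a cytosine followed by a run of pyrimidines, the 5′ terminal oligopyrimidine (TOP) tract, through which mTORC1 controls translation, and host genes of small nucleolar RNAs often start the same way. The first bases of the 9 called genes found with such a tract are shown so that the starts of ribosomal and host genes can be read beside those of the others, KANSL1 and STIM1 (called higher) and HMGA1 (called lower). Each line gives 20 bases before and 20 bases from a RefSeq start on GRCh38.p14, with the tract, a C followed by at least 4 bases that are each C or T, in capitals.
SNHG5: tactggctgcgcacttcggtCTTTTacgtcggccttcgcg
ZFAS1: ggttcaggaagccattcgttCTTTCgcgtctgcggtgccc
FBL: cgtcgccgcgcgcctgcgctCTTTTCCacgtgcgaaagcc
RPL11: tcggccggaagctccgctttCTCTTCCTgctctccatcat
RPS12: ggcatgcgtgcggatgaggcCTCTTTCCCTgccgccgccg
RPS27A: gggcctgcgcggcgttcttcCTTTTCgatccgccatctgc
HMGA1: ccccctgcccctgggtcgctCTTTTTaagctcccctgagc
KANSL1: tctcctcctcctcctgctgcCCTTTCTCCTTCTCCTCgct
STIM1: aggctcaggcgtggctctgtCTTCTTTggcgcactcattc
These windows are SNHG5 at chr6:85678714-85678753 (minus strand), ZFAS1 at chr20:49278622-49278661 (plus strand), FBL at chr19:39846360-39846399 (minus strand), RPL11 at chr1:23691786-23691825 (plus strand), RPS12 at chr6:132814549-132814588 (plus strand), RPS27A at chr2:55232668-55232707 (plus strand), HMGA1 at chr6:34236853-34236892 (plus strand), KANSL1 at chr17:46192763-46192802 (minus strand) and STIM1 at chr11:3854584-3854623 (plus strand).
Counting a gene when any of its listed starts has the tract, 7 of 44 genes called lower that the RefSeq table holds had it (15.9%), 2 of 21 called higher (9.52%), and 711 of 9718 tested genes (7.32%). Of 67 tested ribosomal protein genes listed there, 48 had it (71.6%), and without ribosomal proteins 4 of 41 genes called lower did (9.76%). The host gene GAS5, also called lower, had no such tract in its listed window. A match describes these letters only.

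SNHG5, a host gene of small nucleolar RNAs, had 69.5, 79.2 and 88.9 CPM in KRT-positive libraries, against 394, 441 and 309 CPM in KRT-negative libraries (log2 fold change -2.27 ± 0.27 (SE), edgeR adjusted p 0.00137). ZFAS1, another such host, had 476, 526 and 507 CPM in KRT-positive libraries, against 1474, 1656 and 1274 CPM in KRT-negative libraries (log2 fold change -1.54 ± 0.19 (SE), edgeR adjusted p 0.00137). GAS5, also a host gene, had 95.7, 142 and 118 CPM in KRT-positive libraries, against 355, 426 and 334 CPM in KRT-negative libraries (log2 fold change -1.64 ± 0.25 (SE), edgeR adjusted p 0.00694). In all 3 hosts the highest KRT-positive library was under the lowest KRT-negative one. FBL, the fibrillarin of small nucleolar ribonucleoproteins, had 82.6, 84.2 and 83.8 CPM in KRT-positive libraries, against 174, 248 and 278 CPM in KRT-negative libraries. EMG1, which acts in ribosome assembly, and EEF1G, a translation elongation factor, were called lower with log2 fold changes of -1.29 ± 0.24 (SE) and -1.14 ± 0.19 (SE). ZFAS1 and EPB41L4A-AS1, which was called lower as well, are antisense genes, and whether counting used the strand is not stated.

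Of 83 tested ribosomal protein genes, edgeR called 4 lower (RPS12, RPS27A, RPL8 and RPL11) and 0 higher. The 4 are 4.82%, against 0.384% of all genes. In edgeR 62 had an unadjusted p under 0.05 with a lower level, against 11.2% of all genes in either direction. DESeq2 called 36 of the ribosomal protein genes lower, against 259 of all 13279 genes. The log2 fold changes of the ribosomal protein genes were negative in 80, with a median of -0.64, against 0.03 over all genes. That median stayed between -0.70 and -0.46 in all 17 alternatives. In 67 of them all KRT-positive libraries lay below all KRT-negative ones (80.7%, against 9.45% of all genes). RPS12 had 1812, 1546 and 1792 CPM in KRT-positive libraries, against 2642, 3439 and 3540 CPM in KRT-negative libraries. The ribosomal proteins summed to 52916, 51553 and 51965 CPM in KRT-positive libraries 1 to 3, against 75318, 96670 and 92733 CPM in KRT-negative libraries, with 72655 to 98277 CPM in unsorted cells. KRT-negative 1, which leaned by GC as the KRT-positive libraries did, was the lowest of its group, and set against it alone the list's median was -0.51. Ribosomal protein genes have many processed pseudogenes, so their counts are uncertain where reads were split.

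**Figure D4:**
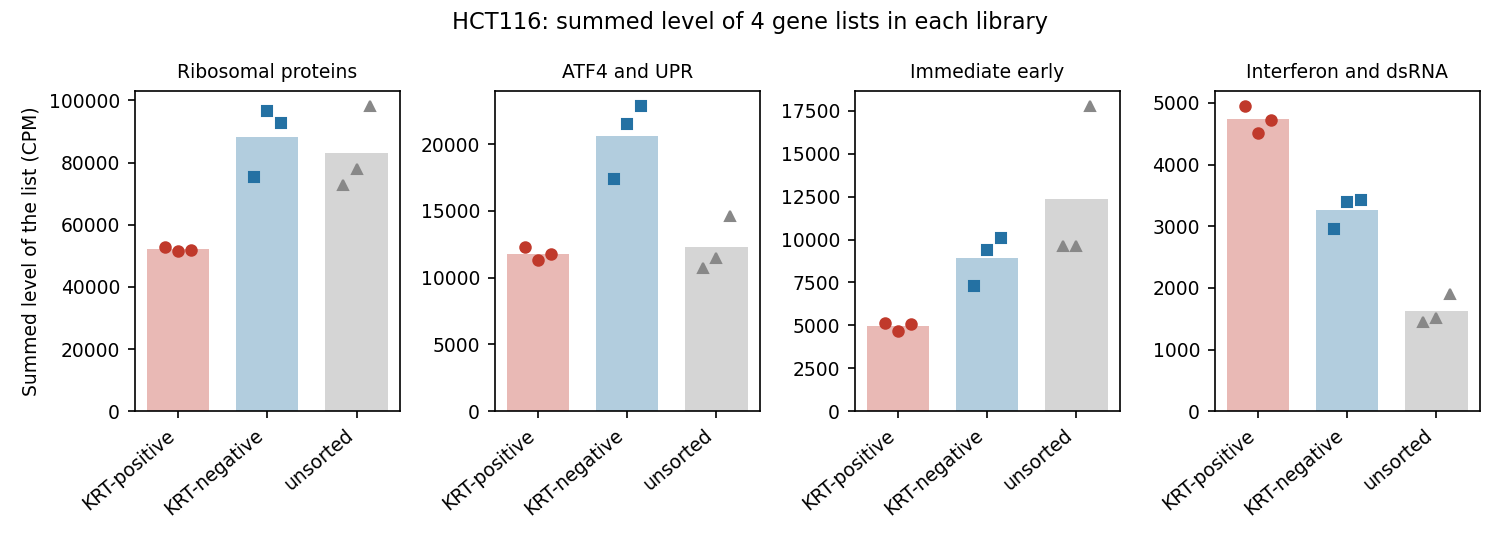
Summed level (CPM, axis from 0) of 4 gene lists in each HCT116 library; points are libraries and bars the group means, with KRT-positive red, KRT-negative blue and unsorted grey. The KRT-positive libraries lie below the KRT-negative ones for ribosomal proteins, ATF4 and unfolded protein response (UPR) genes and immediate early genes, and above them for interferon and dsRNA sensing genes.

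Of 31 tested interferon response and double-stranded RNA sensing genes edgeR called 0, and DESeq2 called 3 higher, against 146 higher of all 13279 genes. In edgeR 8 had an unadjusted p under 0.05, all higher, against 11.2% of all genes in either direction. Of the 31, 12 separated above (38.7%, against 8.77% of all genes) and 1, OAS1, below. The median log2 fold change was 0.56, between 0.47 and 0.86 over the alternatives. IFIH1, the RNA sensor MDA5, had 48.8, 44.99 and 56.7 CPM in KRT-positive libraries, against 12.7, 12.4 and 12.4 CPM in KRT-negative libraries (log2 fold change 2.01 ± 0.64 (SE), edgeR adjusted p 0.199). B2M, the light chain of MHC class I, had 1278, 1414 and 1408 CPM in KRT-positive libraries, against 774, 786 and 996 CPM in KRT-negative libraries (log2 fold change 0.68 ± 0.19 (SE), edgeR adjusted p 0.126). HLA-B, a heavy chain of MHC class I with close paralogs, had 731, 651 and 649 CPM in KRT-positive libraries, against 414, 394 and 408 CPM in KRT-negative libraries (edgeR adjusted p 0.132). Each of the 3 separated the fractions and missed the threshold. The list summed to 4518 to 4955 CPM in KRT-positive libraries, against 2954 to 3430 CPM in KRT-negative libraries and 1449 to 1896 CPM in unsorted cells. The libraries did not overlap in these sums, while no single gene passed the test.

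Of 28 tested tight junction and adhesion genes, 1 was called higher, DSC2 (3.57%, against 0.166% of all genes). In this list 9 separated above (32.1%, against 8.77% of all genes). The median log2 fold change was 0.31, between 0.26 and 0.48 over the alternatives. Mature gut cell markers were scarce. Of 29 colonocyte and enterocyte genes 12 had no count in the 6 libraries and 9 were tested, with 0 called by edgeR, 1 at an unadjusted p under 0.05 and 1 called by DESeq2. TSPAN1, a tetraspanin, had 97.5, 68.5 and 134 CPM in KRT-positive libraries, against 25.6, 25.04 and 29.98 CPM in KRT-negative libraries, and an edgeR adjusted p of 0.0521. Of 16 goblet cell genes 13 had no count. Of 35 G2M and mitosis genes edgeR and DESeq2 called 0, with 7 at an unadjusted p under 0.05 and a median log2 fold change of -0.12. Of 37 DNA replication genes edgeR called 0 and DESeq2 1, with 5 at an unadjusted p under 0.05 and a median of 0.01. The G2M and mitosis list summed to 1369 to 1975 CPM in KRT-positive libraries and 1463 to 1839 CPM in KRT-negative libraries, against 5757 to 7169 CPM in unsorted cells. Of 28 tested H3K9 methylation and silencing genes edgeR and DESeq2 called 0, with 2 at an unadjusted p under 0.05 and a median of -0.05. Of 79 tested oxidative phosphorylation genes both tools called 0, with 7 at an unadjusted p under 0.05. Over all 13279 tested genes, 11.2% had an unadjusted edgeR p under 0.05 and DESeq2 called 405.

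**Figure D5:**
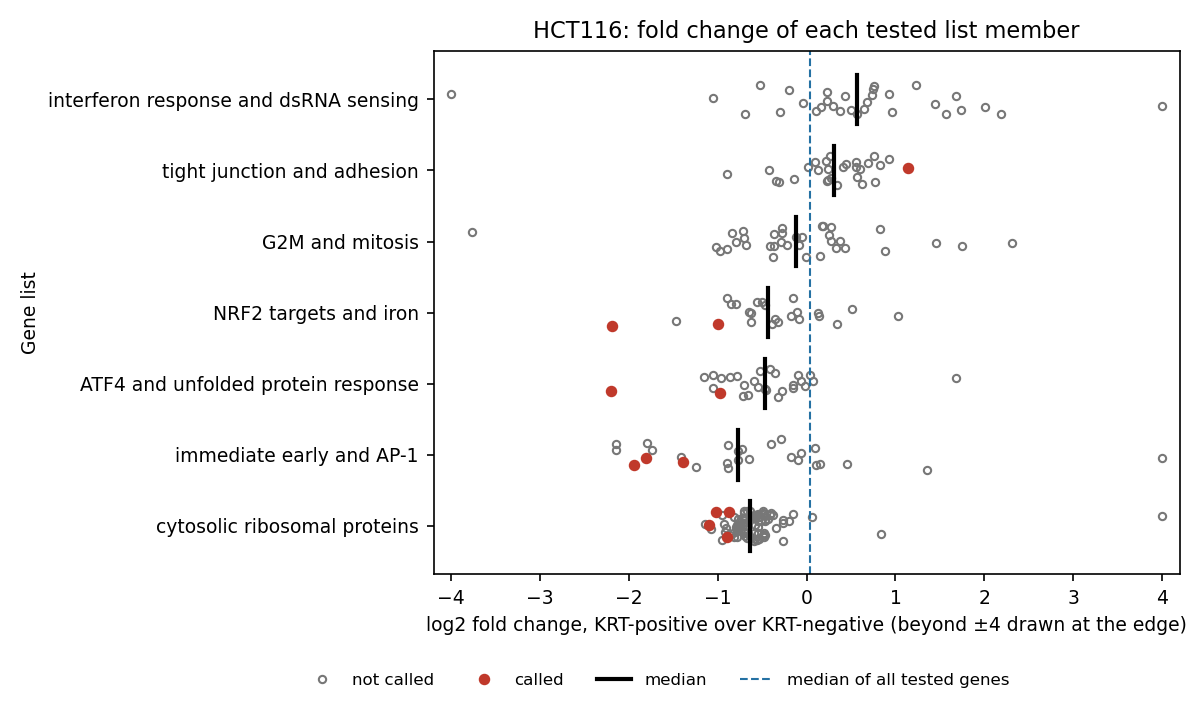
Fold change (KRT-positive over KRT-negative, log2) of each tested member of 7 gene lists; filled red circles were called, open circles were not, black bars are list medians and the dashed line is the median of all tested genes, 0.03. Members beyond 4 in either direction are drawn at the edge; the median bars lie at 0.56 for interferon genes and at -0.77 for immediate early genes.

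The called genes were also set against the same sort in the other lines, which share no library with HCT116. In SW480, 59 of 13252 tested genes were called (0.445%), 5 of them shared with HCT116, which is 6.85% of the HCT116 calls and 8.47% of the SW480 calls, all in the same direction. STIM1 had 695, 633 and 686 CPM in SW480 KRT-positive libraries, against 105, 118 and 134 CPM in KRT-negative libraries. ABCB1 and SERPINE2 were called higher there too, and CYP24A1 and JUN lower. The step itself differed between the 2 lines in 8 of 14851 tested genes (0.0539%) by edgeR's interaction test, and ZNF419 was the only one of the 73 among them. CYP24A1 had 120, 83.0 and 75.1 CPM in SW480 KRT-positive libraries, against 731, 783 and 563 CPM in KRT-negative libraries. Of the HCT116 genes called higher 16 of 20 tested had a positive SW480 fold change, and of those called lower 47 of 51 had a negative one, where 6606 of all 13252 tested genes were positive. In Caco2, where the sort is labelled KRT20, 570 of 13968 tested genes were called (4.08%), and 8 were shared, 11% of the HCT116 calls and 1.40% of the Caco2 calls. Of these GCNT3, LGALS3, SCD and ITGB5 went the same way, and DUSP5, PLIN2, SERINC2 and SLC20A1 were called higher in KRT20-positive Caco2 cells but lower in KRT-positive HCT116 cells. Of the HCT116 genes called higher 16 of 21 tested had a positive Caco2 fold change, and of those called lower 35 of 51 had a negative one and 16 a positive one, where 6973 of all 13968 tested genes were positive.

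Single libraries carried some genes alone. With at least 10 CPM in 1 of the 6 sorted libraries and at most 1 count over the other 5, there were 7, 8 and 8 genes in KRT-positive libraries 1 to 3 and 9, 9 and 3 genes in KRT-negative libraries 1 to 3. IL1R1, an interleukin-1 receptor, had 0, 0 and 21.9 CPM in KRT-positive libraries, against 0.123, 0 and 0 CPM in KRT-negative libraries. FABP1, the liver fatty acid binding protein, had 0, 0 and 0 CPM in KRT-positive libraries, against 13.3, 0 and 0 CPM in KRT-negative libraries. Genes with wide separation that were not called include SNAI2, a repressor of epithelial genes, with 0, 0 and 0 CPM in KRT-positive libraries, against 7.63, 17.7 and 13.7 CPM in KRT-negative libraries (edgeR adjusted p 0.158), and TRIM15, with 9.76, 5.99 and 15.3 CPM in KRT-positive libraries, against 0, 0 and 0 CPM in KRT-negative libraries (edgeR adjusted p 0.0624).

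Transcript GC content moved with the calls. Its median was 44.3% in the 22 genes called higher and 52.7% in the 51 called lower, against 48.6% over all tested genes. With the GC lean as a term in the edgeR fit 45 genes were called, 34 of them among the 73.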

How the data were processed

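The authors deposited 1 table of raw counts per library, made from QuantSeq 3′ tag libraries per the labels' protocols. Bowtie2, edgeR and hg19 are named in the submitters' processing notes; versions, annotation and counting rules are not given in the sources used here. Of 25737 lines, 1561 that repeat one of 286 symbols were summed, leaving 24462 symbols. The 9 HCT116 libraries were fitted with edgeR 4.0.16 (R 4.3.3) by its robust quasi-likelihood F test, after filterByExpr and with TMM factors and group as the term, and called at 5% false discovery rate over all tested genes. The SE was derived as the absolute log2 fold change over √F. The difference between lines was an interaction over 18 HCT116 and SW480 libraries. DESeq2 1.42.0 was an alternative. The pipeline was tested on simulated data. Counting intervals and limits cover counting error only. GC content and gene positions come from GENCODE 29 on GRCh38, not the files' build, and starts from RefSeq. Members, gene lists and named genes (KRT20 and SETDB1, called genes by fold, list members by p, genes by separation and single-library genes) were chosen with earlier results of these data known. Some genes that the rules would name are not reported here.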

Additional observations from a re-analysis of the deposited data

Results flagged for a closer look

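In 8 of 14851 tested genes (0.0539%) the step between KRT-positive and KRT-negative cells differed between HCT116 and SW480 at 5% false discovery rate by edgeR's interaction test. Differences are HCT116 minus SW480 on the log2 scale. ZNF419 gave -10.86, with 0 counts in HCT116 KRT-positive libraries but 84.7 to 120 CPM in SW480 KRT-positive libraries. STAP2 gave -7.99 and S100A3 -7.23, both at or near 0 in HCT116 KRT-positive libraries. S100A3 was also low in HCT116 KRT-negative libraries, at 2.78 to 5.87 CPM. Neither STAP2 nor S100A3 was called within HCT116 (edgeR adjusted p 0.0652 and 0.221). ZCCHC24 gave 10.72 and ANTXR1 8.75, both at 0 in all 3 SW480 KRT-positive libraries. SP5, a Wnt target, gave 4.64, at 2.56 to 2.86 CPM in HCT116 KRT-positive libraries and 0 to 0.319 CPM in KRT-negative ones. HIPK2 gave -1.71. Fitted values of genes with a group at 0 depend on the prior count and are no bound on a fold.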

How the results depend on the processing

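The 73 calls became 62 with RLE size factors, 71 with library totals, 189 with no filter on low counts, 405 with DESeq2, 126 with only the 6 sorted libraries, 45 with the GC class as a term and 46 with only libraries of the AT class, where KRT-negative 1 alone stands for its group. The cause of these shifts was not tested. Leaving out 1 library gave 15 to 172 calls: 17, 15 and 20 without KRT-positive 1, 2 and 3, 130, 16 and 15 without KRT-negative 1, 2 and 3, and 172 without unsorted 3. Each such fit assumes that a group of 2 varies like the others. The 2420 genes without overlap were 3491 to 4330 with a library left out, where fewer libraries must separate. The 8 differences between lines were 233 with DESeq2 and 7 to 72 with a library left out, 72 without SW480 KRT-positive 2, 14 without HCT116 KRT-positive 1 and 13 without SW480 KRT-positive 1. All 73 genes kept their direction in all 17 alternatives, which the lack of overlap between their libraries made likely beforehand. List medians kept their sign for ribosomal proteins, interferon, ATF4, immediate early, NRF2 and tight junction genes, and changed it for VDR targets in 1 alternative, PPAR targets in 3, mitosis in 3, replication in 4, ZNF genes in 6 and H3K9 genes in 3. Same-numbered KRT-positive and KRT-negative libraries had correlations of deviations of -0.06, 0.02 and -0.03, so the numbers are not taken as pairs. With the replicate block 73 genes were called, 60 of them among the 73, and 11 differed between lines.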
